A study of Mus musculus with 9 samples.

Results

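The antioxidant and thioredoxin genes described here were 10 of the 29229 genes in a table of raw read counts. They were taken by gene symbol: Gpx1, Gpx4, Prdx1, Prdx2, Txn1, Txnrd1, Gclc, Gclm, Sod1 and Sod2. The rule uses no measured value, and all 10 passed the filter on low counts. They were measured in splenic T cells of mice with and without a bone marrow transplant, in 9 libraries of total RNA depleted of ribosomal RNA. Allogeneic libraries (n = 3) came from CByJ.SJL(B6)-Ptprca/J recipients, which carry the major histocompatibility type H-2d. These were given 8 Gy of irradiation in split doses and 1000000 splenic T cells. Syngeneic libraries (n = 3) came from B6.SJL-Ptprca Pepcb/BoyJ recipients, which carry the donors' H-2b type. These were given 9.5 Gy and 8500000 splenic T cells. Recipients of both kinds also received 5000000 T-cell-depleted marrow cells. Marrow and T cells came from C57BL/6 donors, which carry the CD45.2 leukocyte allele where the recipients carry CD45.1. Donors and recipients were female and 8 to 12 weeks old, spleens were taken at day 7, and 2 to 4 recipients were pooled for a transplant library. Naive libraries (n = 3) came from healthy C57BL/6 mice without a transplant. Live CD3+ CD45.2+ cells were sorted in all 3 groups. In recipients this gate cannot tell the T cells given from any CD3+ cells grown from the donor marrow. Recipient strain, irradiation dose and T-cell dose all changed together between the allogeneic and the syngeneic group, and their parts cannot be told apart.

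Cells make superoxide and hydrogen peroxide as by-products of respiration and through NADPH oxidases. Superoxide dismutases turn superoxide into hydrogen peroxide, which glutathione peroxidases reduce with glutathione and peroxiredoxins reduce with thioredoxin. Thioredoxin reductase and glutathione reductase restore both carriers at the cost of NADPH, and in T cells, which grow and divide quickly once activated, the same carriers also deliver electrons for the making of deoxyribonucleotides.

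Levels are given as CPM, the count of a gene scaled to a column total of 1000000 counts in each library. The libraries held 103953932 to 176678189 counts in the allogeneic group, 107823729 to 130302320 in the syngeneic group and 113382060 to 138312206 in the naive group. A ribosomal RNA locus (Gm26917 and Gm42418) took 7.87 to 17.2% of the counts of allogeneic libraries, 19.4 to 22.4% in syngeneic ones and 15.8 to 18.8% in naive ones. The CPM of other genes is lowered by these shares. Fold changes were therefore scaled by TMM, a normalization on the bulk of genes. They were tested with edgeR's quasi-likelihood test with Benjamini-Hochberg adjustment over 19609 genes, and a gene was called at an adjusted p under 0.05. Allogeneic library 1 and syngeneic library 1 stood apart from the others of their groups. A chi-square of counts over genes, per degree of freedom, was 362 and 335 between allogeneic library 1 and the others of its group, against 44.6 between those others. In the syngeneic group it was 136 and 114 for library 1, against 33.3, and between naive libraries it was 22.5 to 65.3. All 10 T-cell markers were detected in each library, with summed levels of 4203 to 4570 CPM in allogeneic, 3293 to 4054 CPM in syngeneic and 4471 to 4938 CPM in naive libraries. Between syngeneic and naive libraries 7 of them, Cd4 included, were called lower, where 19.5% of all genes tested were, and Cd8a higher. Their median log2 fold change there was -0.61, beside 0.01 over all genes. Between allogeneic and syngeneic libraries 6, Cd4 included, were called higher, where 24.3% of all genes were, and Cd8a lower. Between allogeneic and naive libraries 1, Cd5, was called lower, where 25.9% of all genes were, and 4 were under upper-quartile scaling. In such bulk samples, fewer cells of a type and less RNA per cell cannot be told apart. Of the genes called, 54.0% were higher between allogeneic and syngeneic libraries, 55.1% between allogeneic and naive ones and 53.4% between syngeneic and naive ones. Under upper-quartile scaling, which moved the median log2 fold change of all genes by -0.12, -0.23 and -0.11 in these comparisons, the shares were 42.1%, 39.9% and 42.2%.

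The 10 genes fell into sets of unlike behaviour. Prdx1, Txn1 and Txnrd1 were called higher in allogeneic than in syngeneic libraries and higher in syngeneic than in naive ones, and Sod1 was called higher in allogeneic libraries than in both other groups. Gpx1, Prdx2, Gclc and Gclm were called higher in syngeneic libraries than in both other groups. Gpx4 and Sod2 were called in no comparison, as were 5406 of all genes (27.6%). Between allogeneic and syngeneic libraries 4 of the 10 genes rose, where 24.3% of all genes tested did, and 4 fell, where 20.7% did. Against naive libraries 5 rose and 0 fell in the allogeneic group, where 31.8% and 25.9% of all genes did, and 7 rose and 0 fell in the syngeneic group, where 22.4% and 19.5% did. Both counts of 0 were also 0 at an unadjusted edgeR p under 0.05, with DESeq2 and with limma-voom, but under upper-quartile scaling 2 genes were called lower in allogeneic libraries, Gpx4 and Sod2. The comparisons with naive libraries share those libraries. The libraries of the groups compared did not overlap in 7 of the 10 genes between allogeneic and syngeneic libraries, where 52.7% of all genes did not. They did not overlap in 6 between allogeneic and naive libraries, where 65.1% of all genes did not, and in 10 between syngeneic and naive libraries, where 56.5% did not. Overlap was judged on CPM by column total, not on TMM-scaled levels. The nearest syngeneic and naive libraries had 80.4 and 80.6 CPM for Gpx4, 49.2 and 48.5 CPM for Gclc and 49.2 and 48.9 CPM for Sod2. Gaps this small need not hold under another scaling. The median log2 fold change of the 10 genes was -0.02 between allogeneic and syngeneic libraries, 0.70 between allogeneic and naive and 0.62 between syngeneic and naive, beside -0.02, -0.01 and 0.01 over all genes.

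**Figure D1:**
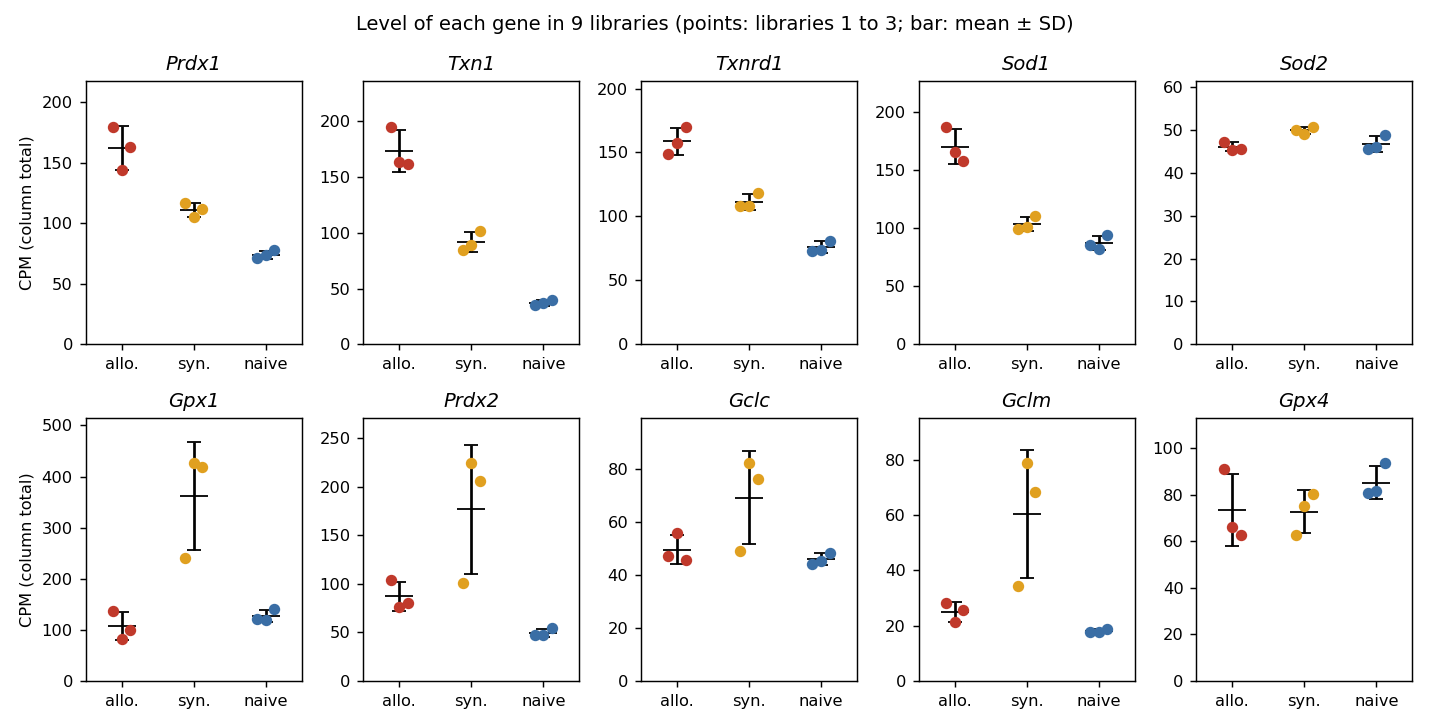
Level of each of the 10 genes in CPM of the column total (y axis, from 0) in the allogeneic, syngeneic and naive libraries; points are libraries 1 to 3 from left to right, and the bar is the mean ± SD. Prdx1, Txn1 and Txnrd1 step down through the 3 groups without overlap, Sod1 is highest in the allogeneic libraries, and in Gpx1, Prdx2, Gclc and Gclm syngeneic libraries 2 and 3 lie far above syngeneic library 1.

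Thioredoxin (Txn1, ENSMUSG00000028367, chromosome 4:57943373-57956411, minus strand, GRCm38) is the small dithiol protein that passes electrons to peroxiredoxins and to ribonucleotide reductase. Its level was 195, 164 and 162 CPM in allogeneic libraries 1 to 3, against 85.0, 88.8 and 102 CPM in syngeneic libraries and 34.9, 37.2 and 40.1 CPM in naive libraries. The groups did not overlap, and the lowest allogeneic library lay well above the highest syngeneic one. Txn1 rose 4.85-fold in allogeneic against naive libraries (log2 fold change 2.28 ± 0.13, SE, edgeR adjusted p = 5.93e-08) and 1.93-fold in allogeneic against syngeneic libraries (0.95 ± 0.12, edgeR adjusted p = 0.000107). In syngeneic against naive libraries it rose 2.52-fold (1.33 ± 0.13, edgeR adjusted p = 9.65e-06).

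Thioredoxin reductase 1 (Txnrd1, ENSMUSG00000020250, chromosome 10:82833951-82897712, plus strand) is the cytosolic selenoprotein that reduces thioredoxin with NADPH. Its levels were 149, 157 and 170.2 CPM in allogeneic libraries, 108, 108 and 119 CPM in syngeneic libraries and 73.1, 73.4 and 81.1 CPM in naive libraries, again without overlap. The fitted changes were smaller than those of Txn1, with 1.44-fold for allogeneic against syngeneic (log2 0.53 ± 0.08, edgeR adjusted p = 0.000359). They came to 2.17-fold for allogeneic against naive (1.12 ± 0.08, edgeR adjusted p = 5.26e-07) and 1.51-fold for syngeneic against naive libraries (0.59 ± 0.08, edgeR adjusted p = 0.000163).

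Peroxiredoxin 1 (Prdx1, ENSMUSG00000028691, chromosome 4:116685544-116700822, plus strand) is a cytosolic peroxidase that draws on thioredoxin. It had 179.9, 144 and 163 CPM in allogeneic libraries, 117, 105 and 112 CPM in syngeneic libraries and 71.1, 73.7 and 77.7 CPM in naive libraries. Here too the 3 groups did not overlap. The rise was 1.48-fold for allogeneic against syngeneic (log2 0.57 ± 0.12, edgeR adjusted p = 0.00327), 2.28-fold for allogeneic against naive (1.19 ± 0.12, edgeR adjusted p = 9.13e-06) and 1.54-fold for syngeneic against naive libraries (0.63 ± 0.12, edgeR adjusted p = 0.00177). The graded order of allogeneic over syngeneic over naive, with a call at each step, was shown by these 3 of the 10 genes and by 1183 of the 19609 genes tested (6.03%).

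Copper and zinc superoxide dismutase (Sod1, ENSMUSG00000022982, chromosome 16:90220754-90226329, plus strand) is the mainly cytosolic enzyme. It had 188, 165 and 158 CPM in allogeneic libraries, 99.4, 101 and 110.2 CPM in syngeneic libraries and 85.6, 81.9 and 94.4 CPM in naive libraries. All allogeneic libraries lay above the rest, and the syngeneic libraries lay just above the naive ones. Sod1 rose 1.67-fold in allogeneic against syngeneic libraries (log2 0.74 ± 0.12, edgeR adjusted p = 0.000409) and 2.04-fold against naive ones (1.03 ± 0.12, edgeR adjusted p = 2.03e-05). The difference of syngeneic from naive libraries was not called (0.28 ± 0.12, edgeR adjusted p = 0.0735), but it was with column totals as library sizes (adjusted p = 0.0462), in a fit of these groups alone (adjusted p = 0.0199) and without allogeneic library 1 (adjusted p = 0.0192).

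The manganese enzyme of the mitochondrial matrix (Sod2, ENSMUSG00000006818, chromosome 17:13006846-13040063, plus strand) stayed within a narrow band. It had 47.3, 45.3 and 45.7 CPM in allogeneic libraries, 49.95, 49.2 and 50.8 CPM in syngeneic libraries and 45.5, 46.0 and 48.9 CPM in naive libraries. Its log2 fold changes were -0.10 ± 0.09 for allogeneic against syngeneic (edgeR adjusted p = 0.389), 0.03 ± 0.09 for allogeneic against naive (0.76) and 0.13 ± 0.09 for syngeneic against naive libraries (0.267). In CPM by column total, syngeneic libraries lay above the others without overlap, by less than 1 CPM over naive ones at the nearest. A gap this small need not hold under another scaling. Its counts are uncertain where reads fit other genes as well, since stretches of Sod2 resemble 25 other genes at an identity of 95% or more over at least 100 bases. The 23 of these in the table held 2722358 counts over the 9 libraries, beside 52744 for Sod2. The longest such stretch in a gene of the table has 3110 bases, 98.3% identical to Rps6ka2 (8779 counts), and the gene with most counts, Pabpc1 (1503344), shares 106 bases. Of Sod1, 465 bases are 97.8% identical to its processed pseudogene Gm8566, which held 1038 counts.

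Glutathione peroxidase 1 (Gpx1, ENSMUSG00000063856, chromosome 9:108338903-108340343, plus strand) is the abundant cytosolic selenoenzyme that reduces hydrogen peroxide. It had 137, 82.8 and 100.4 CPM in allogeneic libraries, 239.8, 426 and 419 CPM in syngeneic libraries and 121, 119 and 142 CPM in naive libraries. The syngeneic libraries stood above both other groups, and the allogeneic and naive ranges overlapped. Gpx1 was 3.28-fold lower in allogeneic than in syngeneic libraries (log2 -1.71 ± 0.23, edgeR adjusted p = 0.000141) and 2.88-fold higher in syngeneic than in naive libraries (1.53 ± 0.23, edgeR adjusted p = 0.000311). Allogeneic and naive libraries were not called apart (-0.19 ± 0.23, edgeR adjusted p = 0.501).

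Peroxiredoxin 2 (Prdx2, ENSMUSG00000005161, chromosome 8:84969587-84974834, plus strand), a close relative of Prdx1, is among the most abundant proteins of red blood cells. It had 104, 76.5 and 80.5 CPM in allogeneic libraries, 101, 224 and 206 CPM in syngeneic libraries and 46.8, 47.0 and 54.3 CPM in naive libraries. Syngeneic library 1 lay within the allogeneic range and the other syngeneic libraries far above it, while all naive libraries were lowest. Prdx2 was 1.97-fold lower in allogeneic than in syngeneic libraries (log2 -0.98 ± 0.24, edgeR adjusted p = 0.00629). It was 1.85-fold higher in allogeneic than in naive libraries (0.88 ± 0.24, edgeR adjusted p = 0.00767) and 3.63-fold higher in syngeneic than in naive ones (1.86 ± 0.24, edgeR adjusted p = 0.000106). The counts of Prdx1 over those of Prdx2 were 1.73, 1.88 and 2.03 in allogeneic libraries, 1.15, 0.469 and 0.546 in syngeneic libraries and 1.52, 1.57 and 1.43 in naive libraries. The 3 groups did not overlap in this ratio, and Prdx2 counts exceeded those of Prdx1 in syngeneic libraries 2 and 3.

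Prdx2 shares 173 exon bases with Junb and 177 with Rnaseh2a, both on the opposite strand. The sources used here do not say whether the counting used strand, so reads of Prdx2 and of these neighbours may be mixed. Junb, an AP-1 transcription factor, had 198 ± 12.2 CPM in allogeneic, 389 ± 45.5 CPM in syngeneic and 288 ± 45.0 CPM in naive libraries (SD, n = 3 each). Its log2 fold changes were -0.97 ± 0.14 for allogeneic against syngeneic (edgeR adjusted p = 0.000172), -0.49 ± 0.13 for allogeneic against naive (edgeR adjusted p = 0.00885) and 0.48 ± 0.13 for syngeneic against naive libraries (edgeR adjusted p = 0.0139). Rnaseh2a, a subunit of ribonuclease H2, had 25.9 ± 3.09 CPM in allogeneic, 26.7 ± 1.52 CPM in syngeneic and 25.9 ± 1.97 CPM in naive libraries and was not called in any comparison (edgeR adjusted p of 0.666 or more). Junb and Prdx2 were thus called in the same direction between the transplant groups and between syngeneic and naive libraries, and in opposite directions between allogeneic and naive libraries.

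Glutamate-cysteine ligase makes the first and limiting step of glutathione synthesis, with a catalytic subunit (Gclc, ENSMUSG00000032350, chromosome 9:77754535-77794485, plus strand) and a modifier subunit that raises its activity (Gclm, ENSMUSG00000028124, chromosome 3:122245557-122270732, plus strand). Gclc had 47.3, 55.9 and 45.7 CPM in allogeneic libraries, 49.2, 82.3 and 76.4 CPM in syngeneic libraries and 44.3, 45.3 and 48.5 CPM in naive libraries. Syngeneic library 1 lay among the allogeneic ones and just above the naive ones. Gclc was 1.37-fold lower in allogeneic than in syngeneic libraries (log2 -0.45 ± 0.14, edgeR adjusted p = 0.0239) and 1.53-fold higher in syngeneic than in naive libraries (0.62 ± 0.14, edgeR adjusted p = 0.00511). The first of these calls was lost without syngeneic library 2 (adjusted p = 0.0856), syngeneic library 3 (0.0858) or allogeneic library 3 (0.0632). Allogeneic and naive libraries were not called apart (0.16 ± 0.14, edgeR adjusted p = 0.351).

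Gclm had 28.2, 21.2 and 25.6 CPM in allogeneic libraries, 34.4, 78.8 and 68.5 CPM in syngeneic libraries and 17.9, 17.8 and 18.7 CPM in naive libraries, and the 3 groups did not overlap. Gclm was 2.35-fold lower in allogeneic than in syngeneic libraries (log2 -1.24 ± 0.23, edgeR adjusted p = 0.0012) and 3.39-fold higher in syngeneic than in naive libraries (1.76 ± 0.23, edgeR adjusted p = 0.000115). Its higher level in allogeneic than in naive libraries was not called (0.52 ± 0.23, edgeR adjusted p = 0.068), but it was in 5 of 18 alternative fits. These were DESeq2, no filter on low counts, a fit of these groups alone, and fits without syngeneic library 1 or allogeneic library 2, with adjusted p between 0.00486 and 0.0452. The count of Gclc over that of Gclm was 1.68, 2.64 and 1.79 in allogeneic libraries, 1.43, 1.04 and 1.11 in syngeneic libraries and 2.48, 2.54 and 2.59 in naive libraries. Syngeneic libraries were lowest in this ratio, naive ones nearly alike, and allogeneic library 2 lay just above the naive ones while the other allogeneic libraries lay between the groups. A stretch of 287 bases of Gclm is 97.9% identical to Ppia, the gene of cyclophilin A, which held 481692 counts over the 9 libraries beside 36765 for Gclm. The sources used here do not say how reads with several alignments were counted.

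Glutathione peroxidase 4 (Gpx4, ENSMUSG00000075706, chromosome 10:80047166-80056439, plus strand) is the selenoenzyme that reduces lipid peroxides in membranes and protects cells from ferroptosis. It had 91.1, 66.2 and 62.8 CPM in allogeneic libraries, 62.4, 74.9 and 80.4 CPM in syngeneic libraries and 80.6, 81.4 and 93.4 CPM in naive libraries. Allogeneic library 1 reached the naive level and the other allogeneic libraries did not, and the syngeneic libraries all lay below the naive ones, the nearest by less than 1 CPM. The log2 fold changes were 0.05 ± 0.17 for allogeneic against syngeneic (edgeR adjusted p = 0.815), -0.15 ± 0.17 for allogeneic against naive (0.471) and -0.20 ± 0.17 for syngeneic against naive libraries (0.377). The pseudogene Gpx4-ps2 is 99.7% identical to Gpx4 over 762 bases and was not analysed here, so the counts of Gpx4 are uncertain to the extent that its reads were shared. Without allogeneic library 1 the sign of the first turned (-0.20) and the second was called (-0.40, adjusted p = 0.00822). Allogeneic library 1 was also the highest of its group in Gpx1, Prdx1, Prdx2, Txn1, Gclm, Sod1 and Sod2.

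**Figure D2:**
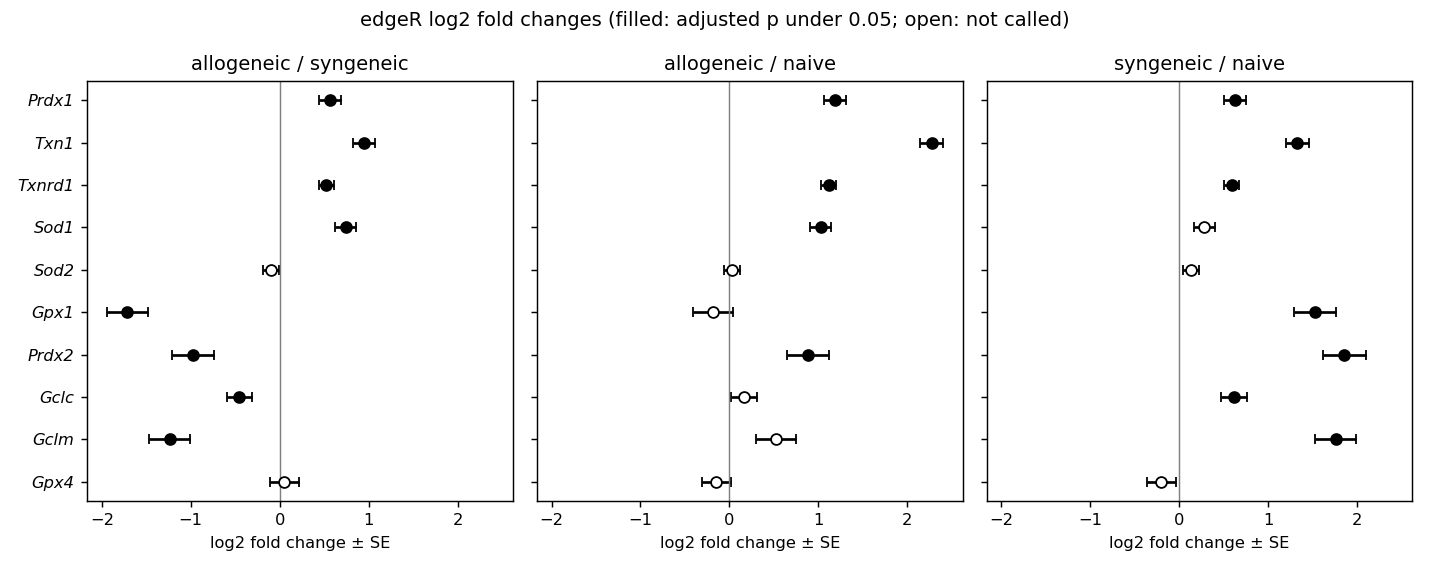
Log2 fold change ± SE from edgeR for the 10 genes (rows) in allogeneic over syngeneic, allogeneic over naive and syngeneic over naive libraries (panels); filled points have an adjusted p under 0.05. Prdx1, Txn1, Txnrd1 and Sod1 lie right of 0 and Gpx1, Prdx2, Gclc and Gclm left of 0 between allogeneic and syngeneic libraries, while every called gene lies right of 0 against naive libraries.

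Markers of other cells differed between the groups. Of 14 erythroid genes listed, 13 were in the table, among them the globin gene Hbb-bs and the red cell anion exchanger Slc4a1, and none was at 0 over a group. Their summed level was 107, 29.5 and 51.3 CPM in allogeneic libraries 1 to 3, 2406, 6326 and 5404 CPM in syngeneic libraries and 12.6, 12.99 and 14.2 CPM in naive libraries. All 13 were called lower in allogeneic than in syngeneic libraries, where 20.7% of all genes were, and higher in syngeneic than in naive ones, where 22.4% were. In allogeneic against naive libraries 11 were called higher, where 31.8% of all genes were. Hbb-bs averaged 3.63 ± 1.34 CPM in allogeneic libraries, 1457 ± 539 CPM in syngeneic libraries and 0.520 ± 0.0245 CPM in naive libraries (SD, n = 3 each).

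Within the syngeneic group, Gpx1, Prdx2, Gclc and Gclm were each lowest in library 1, higher in library 3 and highest in library 2, which is the order of the erythroid, macrophage and megakaryocyte sums. None of the other 6 genes had that order there. Within the allogeneic group the erythroid sum was lowest in library 2, higher in library 3 and highest in library 1. Gpx1, Prdx2 and Gclm had this order, Gclc did not, and Prdx1 and Sod2, which are not among the genes highest in syngeneic libraries by the test, had it too. The spread over syngeneic libraries, as SD over mean, was 29.2% for Gpx1, 37.5% for Prdx2, 25.4% for Gclc and 38.3% for Gclm, and 1.61 to 12.7% for the other 6 genes. With 3 libraries a group these orders carry no test. In syngeneic library 1 Gpx1, Prdx2, Gclc and Gclm were above every naive library, Gclc by less than 1 CPM, and the erythroid sum of that library, though the lowest of its group, was also above every naive library. The part of erythroid RNA in these results was not tested.

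**Figure D3:**
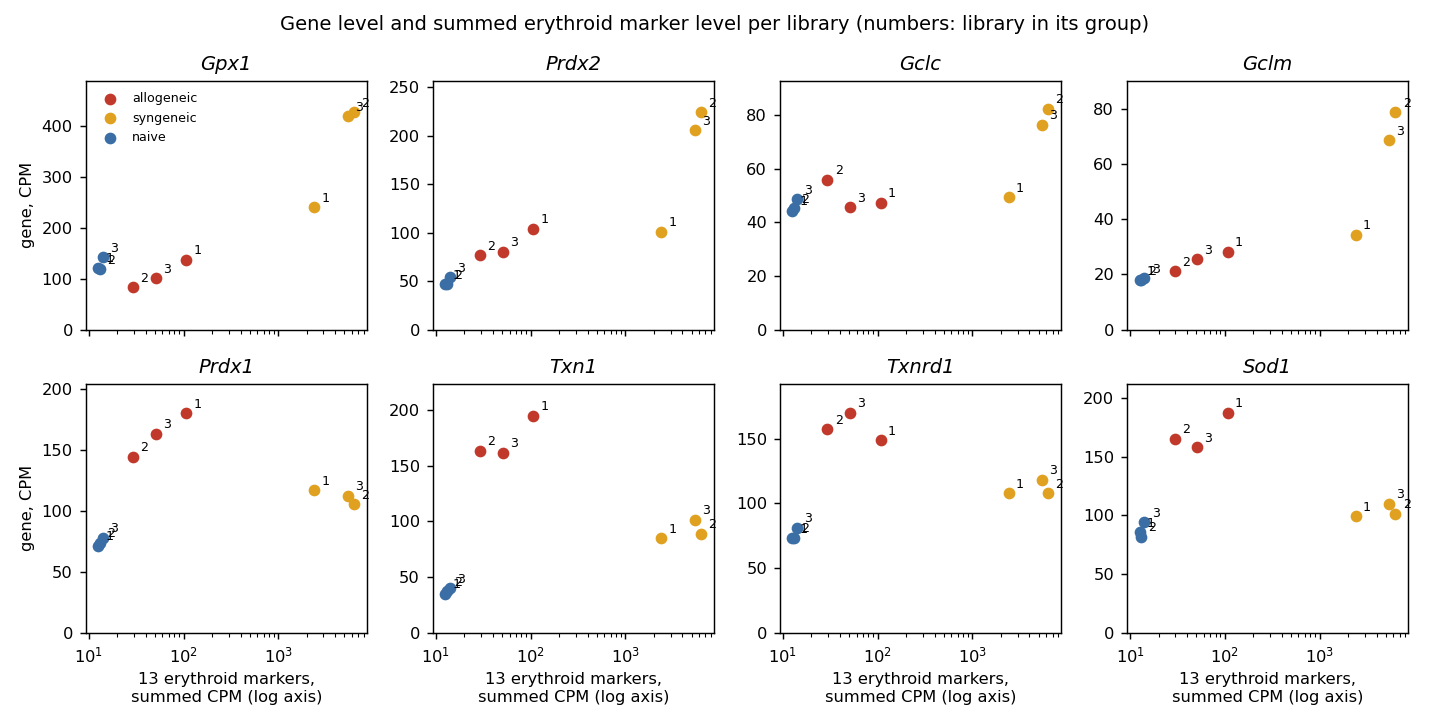
Level of 8 of the genes in CPM (y axis) against the summed CPM of 13 erythroid markers (x axis, log scale) in each library; colours are groups and numbers are the libraries of a group. In the upper panels Gpx1, Prdx2 and Gclm are higher in libraries with a higher erythroid sum inside the allogeneic and the syngeneic group, and in the lower panels Prdx1, Txn1, Txnrd1 and Sod1 are highest in the allogeneic libraries, whose erythroid sums lie between those of the other groups.

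Other markers moved with the groups too. The 12 macrophage markers summed to 49.9 to 87.3 CPM in allogeneic, 52.1 to 207 CPM in syngeneic and 3.56 to 4.62 CPM in naive libraries, where Fcgr1 was at 0, and in the syngeneic group they had the same order over libraries as the erythroid sum. The 10 neutrophil markers, none at 0, summed to 630 to 1128 CPM in allogeneic, 416 to 1390 CPM in syngeneic and 1.66 to 5.20 CPM in naive libraries. The 8 B-cell markers, none at 0, summed to 36.9 to 47.3 CPM in allogeneic, 81.7 to 109.7 CPM in syngeneic and 16.1 to 20.4 CPM in naive libraries. The 6 megakaryocyte markers, none at 0, summed to 2.14 to 2.47 CPM in allogeneic, 3.98 to 7.73 CPM in syngeneic and 1.94 to 3.35 CPM in naive libraries. The 8 natural killer markers include cytotoxic genes that T cells also express. They summed to 1115 to 1409 CPM in allogeneic libraries, where Klra8 was at 0, to 196 to 227 CPM in syngeneic libraries and to 70.6 to 76.8 CPM in naive libraries. The high sum in allogeneic libraries was mostly Gzma, a granzyme, at 1196 ± 161 CPM in allogeneic, 21.4 ± 5.64 CPM in syngeneic and 3.84 ± 1.22 CPM in naive libraries. Of the 8 markers 3 were called higher in allogeneic than in syngeneic libraries, where 24.3% of all genes were, and 4 lower, where 20.7% were. Their median log2 fold change there was -0.74 beside -0.02 over all genes. The 12 cell-cycle genes, none at 0, summed to 3016 to 3451 CPM in allogeneic, 2668 to 4006 CPM in syngeneic and 346 to 377 CPM in naive libraries. Their part in the levels of the 10 genes was not tested.

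Set against exon length, Txn1 led in allogeneic libraries with 165 ± 17.9 CPM per kb, against 87.4 ± 8.28 CPM per kb in syngeneic and 35.6 ± 2.51 CPM per kb in naive libraries (SD, n = 3 each). Gpx1 led in the other groups, with 74.0 ± 19.1 CPM per kb in allogeneic, 251 ± 73.2 CPM per kb in syngeneic and 88.4 ± 8.61 CPM per kb in naive libraries. Below these, the order by mean level in allogeneic libraries was Prdx1, Sod1, Gpx4, Prdx2, Txnrd1, Gclc, Sod2 and Gclm, and neighbours overlapped for Gpx1 and Prdx1 and for Sod1 and Gpx4. In syngeneic libraries the order after Gpx1 and Txn1 was Prdx2, Gpx4, Prdx1, Sod1, Gclc, Txnrd1, Gclm and Sod2, with overlaps of Prdx2 and Gpx4, of Gpx4 and Prdx1 and of Gclc and Txnrd1. In naive libraries Gpx4 stood behind Gpx1 and was followed by Txn1, Prdx1, Sod1, Prdx2, Gclc, Txnrd1, Sod2 and Gclm, where Prdx1 and Sod1 overlapped. The lengths are those of all annotated exons merged, whether or not the transcripts holding them are made in these cells. They came to 1051 bases for Txn1, 3043 for Prdx1, 3970 for Sod1 and 10008 for Sod2. Levels per kb are lowered where the transcripts made are shorter than that, so these orders between genes hold for merged lengths only. Before division by length, Txn1 and Sod1 averaged 174 and 170 CPM in allogeneic libraries. Summed over the 10 genes, the level was 1167, 979 and 1014 CPM in allogeneic libraries, 946, 1338 and 1343 CPM in syngeneic libraries and 621, 623 and 699 CPM in naive libraries, so that both transplant groups lay above the naive one and overlapped with each other.

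By the smallest root mean square distance of centred log2 CPM over the 9 libraries, among 8677 genes with a mean of at least 10 CPM, the gene nearest to Txn1 was Tpi1, the glycolytic triosephosphate isomerase (distance 0.11), at 164 CPM in allogeneic, 90.5 CPM in syngeneic and 40.2 CPM in naive libraries. Thoc6 (0.05) and the lactate dehydrogenase gene Ldha (0.07) were nearest to Prdx1, Ube2l3 and Gbp7 (0.05 each) to Txnrd1, and H2afv (0.03) and Ciao2a (0.05) to Sod1. Ldha had 670.2 CPM in allogeneic, 466 CPM in syngeneic and 334 CPM in naive libraries. For the genes highest in syngeneic libraries the nearest were Ifrd2 (0.11) for Gpx1, Pqlc1 (0.14) and then Gclm itself (0.17) for Prdx2, Mkrn1 (0.08) for Gclc and Ubac1 (0.11) for Gclm. Exosc1 (0.03) was nearest to Sod2 and Atp6v1g1 (0.10) to Gpx4.

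Many antioxidant genes carry an antioxidant response element, the DNA site of the transcription factor NRF2. Its core letters TGACNNNGC were searched on both strands of windows from 250 bases before to 50 after the start of each gene (RefSeq, GRCm38.p6), and no other motif was searched. The letters were found in 4071 of 32851 windows (12.4%), and in 4 of the 14 windows of the 9 members that had any: 1 each of Gclm, Prdx1, Txnrd1 and Sod1. No match lay in the windows of Gpx1, Gpx4, Prdx2, Sod2 and Txn1, and Gclc had no window. Txn1 was also called higher in allogeneic than in syngeneic libraries. The stretches around the 4 matches are shown because Prdx1, Txnrd1 and Sod1 were called higher in allogeneic than in syngeneic libraries and Gclm lower. Each is read from the plus strand, and the capitals are the letters of the match, which lies on the minus strand and so appears as the reverse complement of these letters. The stretches are chr3:122245398-122245456 for Gclm, chr4:116685441-116685499 for Prdx1, chr10:82859089-82859147 for Txnrd1 and chr16:90220681-90220739 for Sod1, and the match begins at positions -134, -133, -92 and -56 relative to the RefSeq start of its window.
Gclm: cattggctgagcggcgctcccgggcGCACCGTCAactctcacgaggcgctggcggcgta
Prdx1: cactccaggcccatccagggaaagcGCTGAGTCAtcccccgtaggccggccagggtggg
Txnrd1: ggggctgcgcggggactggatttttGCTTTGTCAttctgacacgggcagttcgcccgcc
Sod1: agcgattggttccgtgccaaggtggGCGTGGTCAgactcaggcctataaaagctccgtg
A match is only these letters and no measure of binding, and Txnrd1 had it in 1 of its 3 windows, at a start that lies inside the gene span given above; the window at the outermost start holds no match.

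Around the 10 genes, 108 other genes of the same chemistry were taken in 9 lists, of which 106 were in the table and 104 were tested. Between allogeneic and syngeneic libraries 39 of the 104 rose, where 24.3% of all genes tested did, and 22 fell, where 20.7% did. Against naive libraries 53 rose and 21 fell in the allogeneic group, where 31.8% and 25.9% of all genes did. In the syngeneic group 44 rose and 23 fell against naive libraries, where 22.4% and 19.5% of all genes did. The counts of the single lists below are to be read beside these shares. Under upper-quartile scaling 42 rose and 32 fell in allogeneic against naive libraries. In the other comparisons, too, fewer of the 104 rose and more fell under that scaling, so the excess of rises over falls was smaller. Their median log2 fold change was 0.14, 0.34 and 0.16 in the 3 comparisons, beside -0.02, -0.01 and 0.01 over all genes. The median of 0.16 became 0.14 with Gpx8, without a count in naive libraries, set to its bound of 3 counts over the group.

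Of 10 other peroxide enzymes tested, 3 rose and 0 fell in allogeneic against syngeneic libraries, and 0 also at an unadjusted edgeR p under 0.05, with DESeq2 and with limma-voom. Under upper-quartile scaling 2 fell, Prdx3 and Prdx6. The 3 were Prdx4, Prdx5 and Gpx8. Prdx4, the peroxiredoxin of the endoplasmic reticulum, had 20.6 ± 5.15 CPM in allogeneic, 11.3 ± 0.699 CPM in syngeneic and 6.29 ± 0.369 CPM in naive libraries (log2 0.89 ± 0.19 for allogeneic against syngeneic, edgeR adjusted p = 0.00279), the same graded order as Prdx1. Prdx5, found in mitochondria, peroxisomes and cytosol, had 76.6 ± 6.16 CPM in allogeneic, 48.6 ± 4.82 CPM in syngeneic and 52.4 ± 2.45 CPM in naive libraries (0.68 ± 0.11, edgeR adjusted p = 0.000409). Gpx8 had only 0.280 ± 0.0959 CPM in allogeneic libraries. Against naive libraries 5 rose and 2 fell in the allogeneic group, and 4 rose and 1 fell in the syngeneic group. Ccs, the copper chaperone that loads Sod1, fell in both, with 17.8 ± 1.33 CPM in allogeneic, 18.05 ± 1.12 CPM in syngeneic and 26.2 ± 2.83 CPM in naive libraries (log2 -0.50 ± 0.13 in each, edgeR adjusted p = 0.00692 for allogeneic and 0.0103 for syngeneic libraries). Its call in syngeneic libraries was lost without naive library 3 (0.0525) or syngeneic library 3 (0.0516).

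Of 13 other thioredoxin and glutaredoxin genes, 4 rose and 3 fell in allogeneic against syngeneic libraries. Glrx, the cytosolic glutaredoxin that removes glutathione from proteins, had 86.9 ± 7.41 CPM in allogeneic, 25.2 ± 3.40 CPM in syngeneic and 18.3 ± 2.02 CPM in naive libraries (log2 1.82 ± 0.13 for allogeneic against syngeneic, edgeR adjusted p = 9.85e-07). Srxn1, the sulfiredoxin that restores overoxidised peroxiredoxins, had 10.8 ± 2.54 CPM in allogeneic, 3.37 ± 1.53 CPM in syngeneic and 0.622 ± 0.275 CPM in naive libraries (1.70 ± 0.34, edgeR adjusted p = 0.00189). The mitochondrial reductase Txnrd2 and the mitochondrial iron-sulphur protein Glrx5 instead peaked in syngeneic libraries. Txnrd2 had 14.1 ± 1.79 CPM in allogeneic, 29.2 ± 10.4 CPM in syngeneic and 13.1 ± 0.584 CPM in naive libraries, and Glrx5 had 31.1 ± 3.81 CPM in allogeneic, 53.8 ± 15.8 CPM in syngeneic and 24.8 ± 2.13 CPM in naive libraries. Both were lowest in library 1 of the syngeneic group, at 17.3 and 36.0 CPM, and highest in library 2, at 36.7 and 66.0 CPM, in the order of the erythroid sum. That is also the order of the macrophage and megakaryocyte sums. Srxn1, though highest in allogeneic libraries, had it too, at 1.72, 4.73 and 3.67 CPM in syngeneic libraries 1 to 3. The share of all genes with this order was not determined. Against naive libraries 7 of the 13 rose and 1 fell in the allogeneic group, and 6 rose and 4 fell in the syngeneic group.

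In the glutathione cycle 5 of 15 genes rose and 5 fell in allogeneic against syngeneic libraries, while 10 rose and 1 fell in each transplant group against naive libraries. Ggt1, the surface enzyme that starts the breakdown of glutathione outside the cell, had 142 ± 37.4 CPM in allogeneic, 36.5 ± 4.36 CPM in syngeneic and 25.7 ± 0.950 CPM in naive libraries (log2 1.95 ± 0.15 for allogeneic against syngeneic, edgeR adjusted p = 1.92e-06). Mgst2, a membrane-bound glutathione transferase, ran the other way, with 7.41 ± 1.25 CPM in allogeneic, 29.0 ± 2.28 CPM in syngeneic and 41.7 ± 0.768 CPM in naive libraries (-1.96 ± 0.10, edgeR adjusted p = 8.37e-08). Its relative Mgst3 was highest in syngeneic libraries, with 7.23, 27.7 and 23.9 CPM in libraries 1 to 3, in the order of the erythroid sum. Mgst3 had 2.49 ± 0.726 CPM in allogeneic and 1.83 ± 0.355 CPM in naive libraries (-2.92 ± 0.42 for allogeneic against syngeneic, edgeR adjusted p = 0.000217). Mgst2 had the same order in the syngeneic group though it was highest in naive libraries, at 27.3, 31.6 and 28.2 CPM in syngeneic libraries 1 to 3. Glutathione reductase (Gsr), named after its values were seen, was graded like Txnrd1, with 102 ± 6.77 CPM in allogeneic, 65.4 ± 11.6 CPM in syngeneic and 33.0 ± 1.08 CPM in naive libraries.

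Of 10 genes of NADPH supply, 3 rose and 3 fell in allogeneic against syngeneic libraries, and 4 rose and 2 fell in each transplant group against naive libraries. Pgd, a dehydrogenase of the pentose phosphate pathway, had 143 ± 6.13 CPM in allogeneic, 107 ± 9.47 CPM in syngeneic and 77.8 ± 3.61 CPM in naive libraries (log2 0.44 ± 0.10 for allogeneic against syngeneic, edgeR adjusted p = 0.00353). Idh2, the mitochondrial isocitrate dehydrogenase, had 16.5 ± 2.90 CPM in allogeneic, 38.0 ± 1.70 CPM in syngeneic and 52.0 ± 3.64 CPM in naive libraries (-1.18 ± 0.15, edgeR adjusted p = 0.000104). The folate enzyme Mthfd1 was highest in syngeneic libraries, at 84.4 ± 12.2 CPM in allogeneic, 120.3 ± 7.86 CPM in syngeneic and 60.3 ± 1.49 CPM in naive libraries.

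Among 16 NRF2 regulators and targets, 4 rose and 6 fell in allogeneic against syngeneic libraries, 5 rose and 6 fell in allogeneic against naive libraries, and 5 rose and 5 fell in syngeneic against naive ones. Under upper-quartile scaling 2 rose and 6 fell in the first of these comparisons and 3 rose and 9 fell in the second. The repressor Bach2 binds the same kind of site with small Maf proteins and is known in T cells for holding back effector genes. It had 12.2 ± 3.91 CPM in allogeneic, 103 ± 9.80 CPM in syngeneic and 237 ± 20.5 CPM in naive libraries (log2 -3.10 ± 0.18 for allogeneic against syngeneic, edgeR adjusted p = 2.26e-07). The small Maf genes Maff and Mafk fell as well in allogeneic against syngeneic libraries, by 2.11 and 0.97 on the log2 scale. Mafg, the other small Maf gene of the list, named after its values were seen, did not. It had 34.3 ± 5.99 CPM in allogeneic, 32.5 ± 8.98 CPM in syngeneic and 15.9 ± 0.901 CPM in naive libraries. It was not called between the transplant groups (log2 0.10, edgeR adjusted p = 0.635) and rose in both against naive libraries. The gene of NRF2 itself, Nfe2l2, and that of its inhibitor Keap1 were named after their values were seen. Nfe2l2 had 38.4 ± 0.633 CPM in allogeneic, 64.7 ± 2.95 CPM in syngeneic and 75.2 ± 1.83 CPM in naive libraries. Keap1 had 103 ± 4.47 CPM in allogeneic, 81.9 ± 5.23 CPM in syngeneic and 84.1 ± 2.72 CPM in naive libraries. The targets Hmox1, the heme oxygenase, and Nqo1, a quinone reductase, rose in both transplant groups against naive libraries. Hmox1 had 10.7 ± 0.854 CPM in allogeneic, 7.34 ± 3.54 CPM in syngeneic and 0.972 ± 0.181 CPM in naive libraries, and Nqo1 had 2.16 ± 0.502 CPM in allogeneic, 3.58 ± 1.75 CPM in syngeneic and 0.266 ± 0.0869 CPM in naive libraries. Both are also expressed by macrophages. The summed macrophage markers given above were higher in the same groups, and their part was not tested.

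Selenium enters Gpx1, Gpx4 and Txnrd1 as selenocysteine, and of 7 genes that make or insert it 2 rose and 1 fell in allogeneic against syngeneic libraries. Sephs2, which makes the selenium donor, had 65.7 ± 4.53 CPM in allogeneic, 39.1 ± 3.62 CPM in syngeneic and 30.2 ± 1.89 CPM in naive libraries (log2 0.77 ± 0.11 for allogeneic against syngeneic, edgeR adjusted p = 0.000185). Eefsec, the elongation factor that brings the selenocysteine tRNA to the ribosome, had 36.9 ± 2.23 CPM in allogeneic, 49.6 ± 2.57 CPM in syngeneic and 55.7 ± 0.933 CPM in naive libraries (-0.41 ± 0.10, edgeR adjusted p = 0.00545). Of 12 other selenoproteins 9 rose and 1 fell in this comparison, 8 rose and 1 fell in allogeneic against naive libraries, and 4 rose and 4 fell in syngeneic against naive ones. Under upper-quartile scaling 8 rose and 1 fell, 6 rose and 4 fell, and 3 rose and 7 fell in these comparisons. Selenon, a protein of the endoplasmic reticulum, had 16.2 ± 3.41 CPM in allogeneic, 5.85 ± 1.08 CPM in syngeneic and 4.09 ± 0.204 CPM in naive libraries. Selenop, the selenium carrier of plasma, fell in both transplant groups, with 27.2 ± 2.27 CPM in allogeneic, 51.9 ± 7.66 CPM in syngeneic and 224 ± 25.3 CPM in naive libraries. The selenoproteins among the 10 genes thus did not move alike, with Txnrd1 highest in allogeneic libraries, Gpx1 in syngeneic libraries and Gpx4 called nowhere.

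All 6 NADPH oxidase genes rose in allogeneic against naive libraries and 4 in syngeneic against naive ones, while 3 rose and 0 fell in allogeneic against syngeneic libraries, with 0 also at an unadjusted edgeR p under 0.05, with DESeq2 and with limma-voom. Rac2, the small GTPase of the complex that T cells also express, had 1480 ± 127 CPM in allogeneic, 890 ± 85.0 CPM in syngeneic and 1014 ± 22.4 CPM in naive libraries (log2 0.74 ± 0.11 for allogeneic against syngeneic, edgeR adjusted p = 0.000294). Cybb, the catalytic subunit of phagocytes, had 30.5 ± 6.36 CPM in allogeneic, 42.1 ± 21.5 CPM in syngeneic and 6.48 ± 1.93 CPM in naive libraries. Within the syngeneic group it had 17.2, 54.7 and 54.3 CPM in libraries 1 to 3, and macrophage and neutrophil markers were also lowest in library 1. Their part in the level of Cybb was not tested. Of 15 genes of repair and stress sensing, 6 rose and 3 fell in allogeneic against syngeneic libraries, 6 rose and 6 fell in allogeneic against naive ones, and 6 rose and 4 fell in syngeneic against naive ones. Under upper-quartile scaling 3 rose and 4 fell in the first of these. The metallothionein Mt1 had 17.2 ± 4.25 CPM in allogeneic, 4.50 ± 2.33 CPM in syngeneic and 0.241 ± 0.101 CPM in naive libraries (1.99 ± 0.40 for allogeneic against syngeneic, edgeR adjusted p = 0.00188). Aifm2, which guards against lipid peroxidation alongside Gpx4, had 6.10 ± 0.660 CPM in allogeneic, 1.80 ± 0.813 CPM in syngeneic and 0.576 ± 0.187 CPM in naive libraries (1.79 ± 0.33, edgeR adjusted p = 0.00113).

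**Figure D4:**
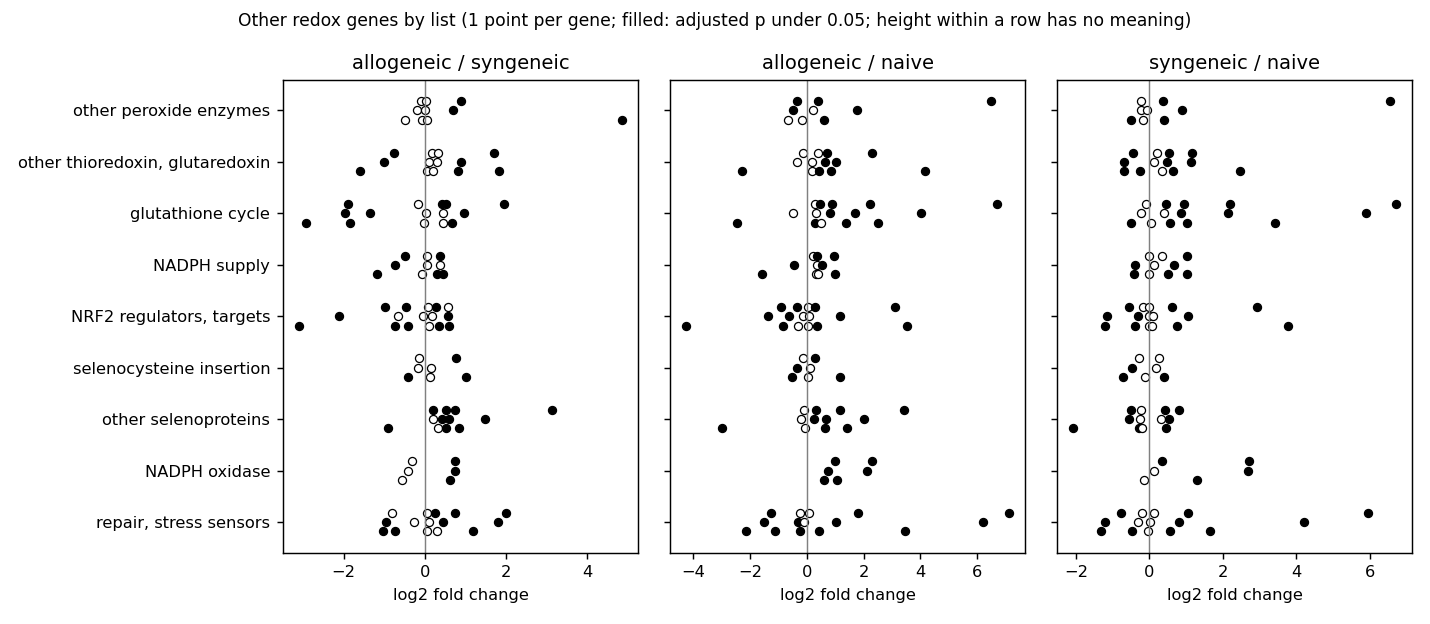
Log2 fold change from edgeR (x axis) of the other redox genes in 9 lists (rows), 1 point a gene, for allogeneic over syngeneic, allogeneic over naive and syngeneic over naive libraries (panels); filled points have an adjusted p under 0.05, and Gpx8 is left out of the panels against naive libraries, where it had no count. All 6 NADPH oxidase genes lie right of 0 between allogeneic and naive libraries, and 9 of 12 other selenoproteins are called right of 0 between allogeneic and syngeneic libraries.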

How the data were processed

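Per the labels' protocols, 100 ng of DNase-treated total RNA from sorted CD3+ CD45.2+ splenic cells went into each stranded library. The authors deposited raw read counts per gene with Ensembl identifiers for all 9 libraries. Per the submitters' processing notes, the tools were HTSeq 0.6.1, TopHat2 2.0.13 with Bowtie2 2.2.1, and FastQC 0.11.3, and the build was GRCm38. The sources used here do not give the annotation release, the strand setting, filters or how reads with several alignments were counted. Libraries were grouped by the transplant type in their labels. The strain tag of all 9 names the syngeneic strain, against the protocols, and was not used.

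GENCODE M21 gave symbols and coordinates for 29014 of 29229 identifiers. Genes were kept by filterByExpr by group in edgeR 4.0.16, scaled by TMM and tested with the quasi-likelihood test in 1 model of 9 libraries with the group as its only term. An SE is the log2 fold change over the square root of F. Similar copies of the 10 genes were sought with a minimum of 95% identity over 100 bases. The test was also run on simulated counts in which few genes changed, in the allogeneic group only. That setting is simpler than these data, and no result here rests on it. No replicates agreed within sampling noise. Transplant replicates are separate pools. Pooling of naive mice is not stated, and p-values measure the spread between libraries. Values of 3 counts over a group equal 0.00753, 0.00866 and 0.00819 CPM in allogeneic, syngeneic and naive libraries, and cover counting error only.

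The 10 genes, the lists and the tests were chosen with earlier results of these data known. Named besides the 10 genes were, per list and comparison, up to 3 called genes with the largest change, the 2 markers per list with the highest CPM, and the 3 nearest profiles per gene, of which the text gives part, and Gsr, Nfe2l2, Keap1, Mafg and Txndc12 outside this rule. The 18 alternatives comprised DESeq2 1.42.0, limma-voom of limma 3.58.1, other scalings, no filter, a fit of only the groups compared, a replicate block, the ribosomal RNA locus left out and each of the 9 libraries left out.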

Additional observations from a re-analysis of the deposited data

Results flagged for a closer look

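Genes were flagged among the 10 genes, the 104 other redox genes tested and the named markers and neighbours. A flagged gene was called in opposite directions against the naive libraries in the allogeneic and the syngeneic group. It also had to be called in the direct contrast of the transplant groups. That contrast is given for each gene, but as a condition of the list it is no separate support. The naive libraries are shared by both comparisons. Maff had 1.72, 1.71 and 1.31 CPM in allogeneic libraries, 7.24, 8.33 and 5.17 CPM in syngeneic libraries and 4.98, 4.30 and 3.48 CPM in naive libraries, with a log2 fold change of -2.11 for allogeneic against syngeneic libraries (edgeR adjusted p = 3.41e-05). Its rise in syngeneic against naive libraries (0.74, edgeR adjusted p = 0.0209) was lost when naive library 2 or 3 or syngeneic library 1 or 2 was left out, with adjusted p between 0.0525 and 0.0855. Mafk had 34.2, 43.6 and 41.2 CPM in allogeneic libraries, 72.1, 86.4 and 76.8 CPM in syngeneic libraries and 57.1, 49.5 and 51.5 CPM in naive libraries, with a log2 fold change of -0.97 between the transplant groups (edgeR adjusted p = 7.64e-06).

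Junb, which overlaps Prdx2 on the other strand, had 189.9, 212 and 191 CPM in allogeneic libraries, 436, 384 and 346 CPM in syngeneic libraries and 317, 311 and 236 CPM in naive libraries, with a log2 fold change of -0.97 between the transplant groups. Its rise in syngeneic against naive libraries (0.48, edgeR adjusted p = 0.0139) was lost without naive library 3 (0.0611) and under upper-quartile scaling (0.0587). Pstk, the kinase of selenocysteine synthesis, had 11.3, 12.5 and 12.4 CPM in allogeneic libraries, 6.07, 6.07 and 6.05 CPM in syngeneic libraries and 10.1, 10.3 and 10.5 CPM in naive libraries, with a log2 fold change of 1.01 between the transplant groups (edgeR adjusted p = 2.61e-05). Its small rise in allogeneic against naive libraries (0.28, edgeR adjusted p = 0.0425) was lost in most alternative fits, with adjusted p up to 0.704 under upper-quartile scaling. Txndc12, a thioredoxin-like protein of the endoplasmic reticulum, had 35.7 ± 1.34 CPM in allogeneic, 19.4 ± 1.47 CPM in syngeneic and 27.2 ± 0.984 CPM in naive libraries (SD, n = 3 each), with a log2 fold change of 0.90 between the transplant groups (edgeR adjusted p = 6.81e-05). Its rise in allogeneic against naive libraries (0.44, edgeR adjusted p = 0.00468) was lost under upper-quartile scaling (0.0769), and its fall in syngeneic against naive libraries was by 0.45 on the log2 scale (edgeR adjusted p = 0.00647). Maff, Mafk, Junb and Pstk do not overlap between the transplant groups. For Txndc12, given by mean and SD only, the means of these groups lie apart by far more than either SD.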

How the results depend on the processing

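Of 540 alternative values of the 10 genes' log2 fold changes, 520 kept their direction and their side of the threshold. With the direction kept, 11 newly passed it and 3 no longer passed it. The other 6 turned their sign. Among these, Sod2 between allogeneic and naive libraries under upper-quartile scaling also newly passed the threshold (edgeR adjusted p = 0.0324). Under upper-quartile scaling, which moved all genes down, the turned values were -0.0800 for Gpx4 between allogeneic and syngeneic libraries and -0.0720 for Gclc and -0.20 for Sod2 between allogeneic and naive libraries. With column totals Sod2 came to -0.0222 between allogeneic and naive libraries. With each library left out in turn, Gpx4 ran from -0.20 to 0.16 between allogeneic and syngeneic libraries and Sod2 from -0.0449 to 0.0891 between allogeneic and naive ones, both turned without allogeneic library 1. None of these was called in the fit as reported. The count of the 10 genes lower in allogeneic than in naive libraries was 0, was 2 under upper-quartile scaling (Gpx4 and Sod2, adjusted p = 0.0404 and 0.0324) and ran from 0 to 1 with a library left out. The count of the other redox genes lower in that comparison was 32 under upper-quartile scaling, against 21. Sod2 was also called lower in allogeneic than in syngeneic libraries under that scaling (-0.23, adjusted p = 0.0273). The cause was not tested.

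Groups share replicate numbers 1 to 3, and the labels do not say that these numbers pair libraries. Same-numbered libraries correlated by -0.12 to 0.26 in their deviations, and 5 of 18 were nearest to their own number. With 3 libraries a group these values cannot decide whether libraries were paired. With the replicate block, all 30 fold changes of the 10 genes kept their call, and 4657 and 4012 genes were called higher and lower in allogeneic against syngeneic libraries, against 4766 and 4066. The 3 libraries a group limit the precision, and the recipients' strain and doses cannot be told apart from the group.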
